A study of Homo sapiens with 15 samples.

Results

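The nutrient sensing genes upstream of mTORC1 described here are 10 genes chosen by symbol from the rows of a gene count table: the sestrins SESN1, SESN2 and SESN3, the CASTOR proteins CASTOR1 and CASTOR2, the inhibitor DEPTOR, the GATOR1 subunit DEPDC5, the small GTPases RRAGC and RRAGD, and folliculin (FLCN). All 10 symbols matched 1 row each among 62754 genes, and 8 of the 10 passed the filter on low counts that left 13828 genes for testing. The cells were MCF10A, an established, non-tumorigenic line of human breast epithelium, labelled wild type, and no gene was altered in any group. They were kept in full medium with 2.5 mM glutamine or under limitation at 0.28, 0.20, 0.12 or 0.04 mM, with 3 biological replicates in each of the 5 groups. All groups thus share 1 cell line, and the medium used to maintain it held the MEGM supplements and cholera toxin. The time spent under limitation is not given in the sources used here. Total RNA was depleted of ribosomal RNA and sequenced, giving 15 libraries.

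mTORC1 is a kinase complex on the lysosome that promotes growth when amino acids are plentiful. SESN1 and SESN2 encode leucine sensors and CASTOR1 an arginine sensor. Without their amino acid these proteins hold back GATOR2, which leaves GATOR1 free to switch off the Rag GTPases RagA and RagB. CASTOR2, a relative of CASTOR1, also binds GATOR2 but is not known to bind arginine. RagC and RagD, their partners in the Rag dimer, are set to the active state by folliculin, and they bring the transcription factors TFEB and TFE3 to mTORC1. DEPTOR binds mTOR itself and restrains it. At the level of transcription, SESN2 is a known target of ATF4 and NRF2 (gene NFE2L2) and SESN3 of FOXO factors, and TFEB and TFE3 are known to act on the genes of folliculin, RagC and RagD.

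The libraries held 3704170 to 13361406 gene counts, with 2 of them (replicate 3 at 0.04 and 0.12 mM) above 1% in mitochondrial ribosomal RNA. These 2 were also the shallowest of the 15. Depth differed between groups, and the 0.04 mM library was the shallowest of each replicate number, with 11228596, 6454088 and 3704170 gene counts for replicates 1, 2 and 3. Libraries that share a replicate number were alike beyond their group, and this number was a block in each fit except where said. Basal markers were high, with KRT5 at 5854 to 7765 CPM (counts scaled to a common library total, here with TMM factors) and TP63 at 80.2 to 121 CPM. The luminal receptors ESR1 and PGR did not exceed 0.539 CPM, and LUM, CD3E and CDH5, which mark fibroblasts, T cells and endothelium, were at 0 in all 15 libraries. Of the 5 fibroblast markers, 4 had counts, and their summed level was 33.2 to 45.7 CPM in full medium against 50.4 to 61.0 CPM at 0.04 mM. The endothelial list, 2 of 3 with counts and nearly all PECAM1, summed to 3.34 to 5.56 CPM in full medium and 4.92 to 11.9 CPM at 0.04 mM. Of the 3 immune markers 2 had counts, PTPRC and CD68, with a sum of at most 0.0923 CPM in full medium and 0.540 CPM at 0.04 mM. The part of these cells, if any were present, in the results below was not tested. In bulk RNA, fewer cells of a type and less of an RNA per cell cannot be told apart. What separates the replicates (culture, day or passage) is not stated in the labels, so the p-values measure only the spread between these libraries.

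In full medium, the 10 genes spanned a wide range of levels per transcript length. The mean over 3 libraries was 26.8 ± 4.72 CPM per kb (SD, n = 3) for CASTOR2, 8.34 ± 0.638 for SESN2, 6.73 ± 1.71 for SESN1 and 3.04 ± 0.690 for FLCN, all per kb of the longest coding transcript. On the same scale DEPDC5 stood at 2.78 ± 0.186, RRAGC at 2.58 ± 0.311 and SESN3 at 1.27 ± 0.248 CPM per kb. DEPTOR followed at 0.302 ± 0.0870, RRAGD at 0.126 ± 0.0109 and CASTOR1 at 0.0190 CPM per kb. The ranges of SESN2 and SESN1 overlapped, as did those of FLCN, DEPDC5 and RRAGC. With the length of all exons joined in place of the longest coding transcript, RRAGC was the 4th, SESN3 the 5th, FLCN the 6th and DEPDC5 the 7th gene in this order. The top place of CASTOR2 rests on an annotated transcript of only 1257 bases and on a locus of chromosome 7 with closely related copies, between which the counting could split reads. One row of its relative CASTOR3P held 4 to 18 counts per library and the other 0, against 137 to 543 for CASTOR2.

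**Figure D1:**
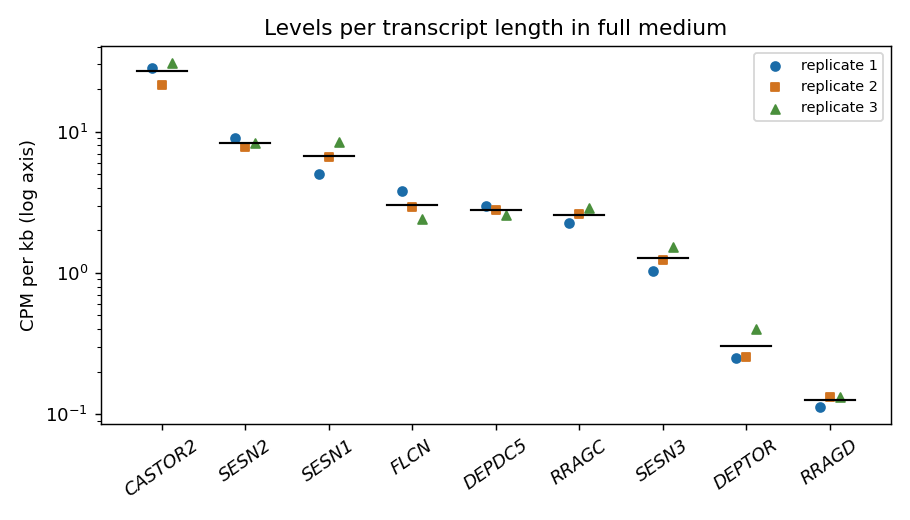
CPM per kb of the longest coding transcript (log axis) in the 3 full medium libraries, by replicate (points) and mean (line), for the 9 genes with counts in all 3. CASTOR2 is highest at 26.8 and RRAGD lowest at 0.126, and CASTOR1, at 0 in 2 of the 3 libraries, cannot be drawn on this axis.

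None of the 8 tested genes passed in any comparison with full medium. By edgeR's quasi-likelihood test with Benjamini-Hochberg adjustment over 13828 genes and a threshold of 0.05, 0 of 8 were called at 0.28 mM, where 2.08% of all tested genes were called, 0 of 8 at 0.20 mM (14.8% of all), 0 of 8 at 0.12 mM (8.31%) and 0 of 8 at 0.04 mM (13.4%). The 287 genes called at 0.28 mM became 24 to 775 with single libraries left out. For the mean of the 4 limited groups against full medium the count was again 0 of 8, beside 17.0% of all genes. A test for any difference among the 5 groups called 0 of 8, beside 10.7% of all. At an unadjusted p under 0.05, RRAGC and SESN1 passed at 0.04 mM, CASTOR2 at 0.12 mM, and RRAGC and CASTOR2 in the mean of the limited groups, 2, 1 and 2 of 8 genes where 27.1, 22.3 and 30.3% of all genes did. No member passed unadjusted at 0.28 or 0.20 mM or in the test over the 5 groups, where 15.9, 28.4 and 24.1% of all genes did. DESeq2 with the same block called 0 of 8 in each of these comparisons too. The 4 comparisons share the 3 full medium libraries and are not independent of each other.

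The median log2 change of the 8 tested genes was 0.07 at 0.28 mM, 0.05 at 0.20 mM, 0.08 at 0.12 mM and 0.18 at 0.04 mM. Medians over all tested genes lay within 0.01 of 0 in these comparisons. With libraries scaled to the ERCC spike-ins instead of TMM, the median of all genes moved to -0.13 at 0.28 mM, -0.04 at 0.20 mM, -0.18 at 0.12 mM and 0.00 at 0.04 mM, and changes below are relative to the TMM scale. Leaving out DEPTOR, which had few counts, the 95% intervals of the other 7 genes in the mean of the limited groups ran from 0.771-fold to 1.50-fold of full medium, and at 0.04 mM from 0.751-fold to 1.79-fold. These intervals are not adjusted for the number of genes.

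**Figure D2:**
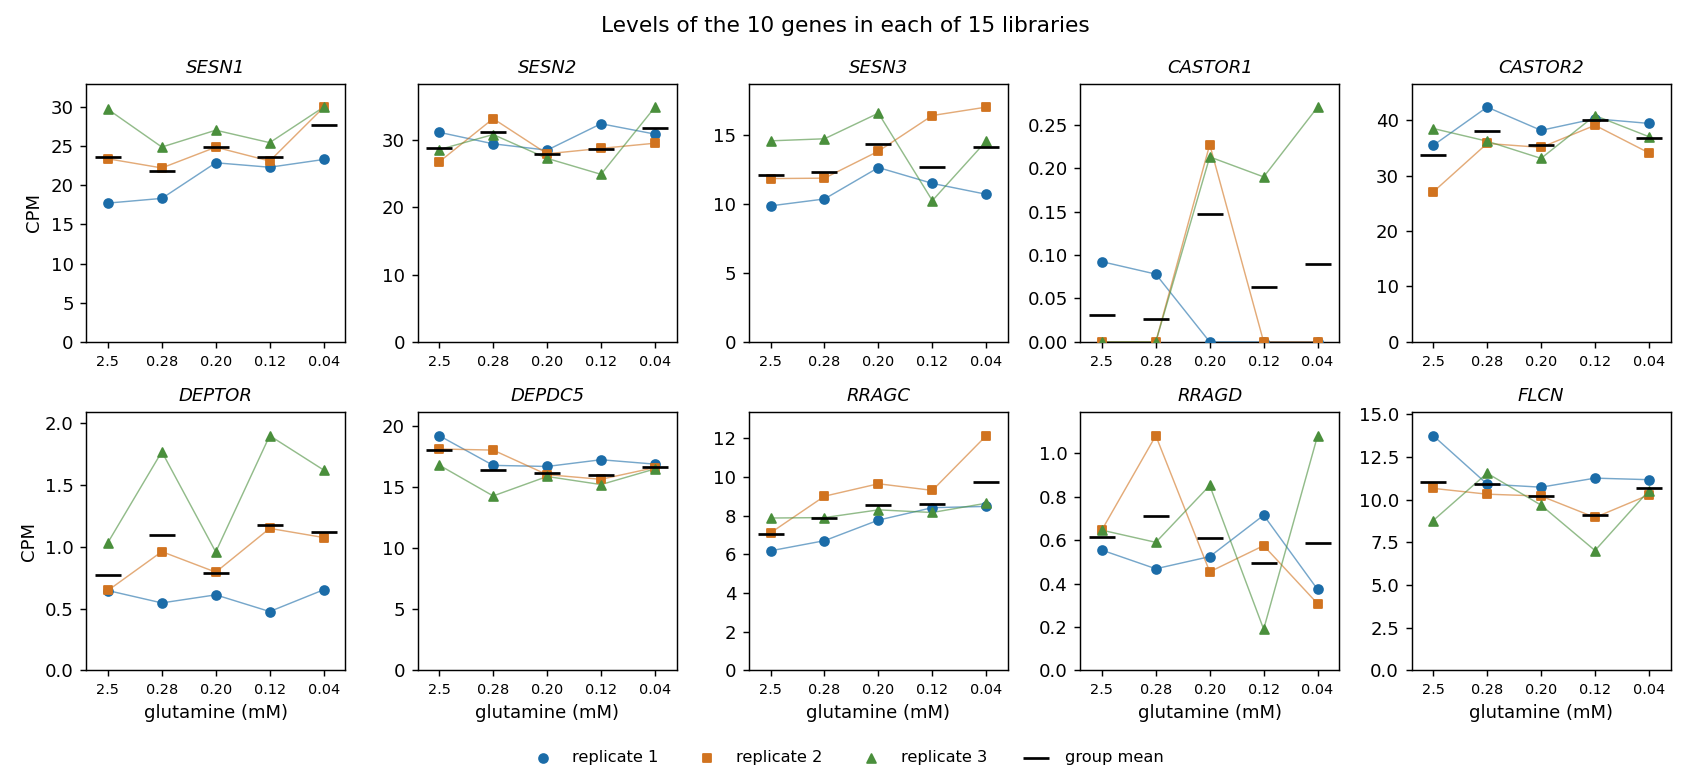
CPM of each of the 10 genes in the 15 libraries against glutamine (mM), with replicates as coloured points joined by number and the group mean as a black bar. RRAGC is above its full medium library in all 12 limited libraries of like number and DEPDC5 below it in all 12, where 14.0% of tested genes had all 12 on 1 side. CASTOR1 and RRAGD stay near the counting limit.

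SESN1 (ENSG00000080546, chr6:108984309-109094846, GRCh38.p14) was highest at the lowest glutamine. Its libraries held 17.7, 23.4 and 29.7 CPM in full medium and 23.3, 30.0 and 30.0 CPM at 0.04 mM, for replicates 1, 2 and 3. Each replicate was higher at 0.04 mM, but the ranges of the groups overlapped, since replicate 1 was lowest in all 5 groups. At 0.28 mM the libraries held 18.3, 22.2 and 24.9 CPM, at 0.20 mM 22.9, 24.9 and 27.0 CPM, and at 0.12 mM 22.3, 23.1 and 25.4 CPM. The log2 change at 0.04 mM was 0.25 (SE 0.117, 95% interval 0.02 to 0.49), with an edgeR adjusted p of 0.154. Without full medium replicate 1 it was 0.15. Across the 12 limited libraries the log2 level changed by -0.10 per doubling of glutamine (SE 0.0379, unadjusted p 0.0113), with an edgeR adjusted p of 0.543. This was the only one of the 8 with an unadjusted p under 0.05 for the slope, where 7.69% of all genes had one. Over all genes edgeR called 0 for the slope, which is 0% of them, and DESeq2 called 24.

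SESN2 (ENSG00000130766, chr1:28259518-28282491), a sestrin induced in many settings of amino acid stress, was nearly level. It held 31.1, 26.7 and 28.6 CPM in full medium, 29.4, 33.1 and 30.8 at 0.28 mM, 28.5, 27.9 and 27.2 at 0.20 mM, then 32.4, 28.7 and 24.9 at 0.12 mM. At 0.04 mM the values were 30.9, 29.5 and 34.9. All groups overlapped with full medium, and 7 of the 12 limited libraries were above their full medium library. Its log2 change was 0.05 for the mean of the limited groups (SE 0.0850, 95% interval -0.13 to 0.22, edgeR adjusted p 0.765). At 0.04 mM it was 0.12 (SE 0.111, -0.11 to 0.34, adjusted p 0.531), an interval of 0.928-fold to 1.27-fold. ATF4, the stress factor known to act on SESN2, had a log2 change of 0.21 in the mean of the limited groups (SE 0.0659, edgeR adjusted p 0.0278), with 380, 379 and 391 CPM in full medium and 363, 448 and 570 CPM at 0.04 mM. Only 8 of 12 limited libraries were above their full medium library, those of replicates 2 and 3, and without full medium replicate 3 the ATF4 change was 0.07 (adjusted p 0.525). Its call also ended without full medium replicate 2 (adjusted p 0.113) and without replicate 3 at 0.04 mM (0.0519), and under spike-in scaling its change was 0.12 (0.499).

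SESN3 (ENSG00000149212, chr11:95165513-95232475) was measured at 9.88, 11.9 and 14.6 CPM in full medium. It held 10.4, 11.9 and 14.8 CPM at 0.28 mM, 12.7, 13.8 and 16.6 at 0.20 mM, then 11.5, 16.4 and 10.3 at 0.12 mM. At 0.04 mM the values were 10.7, 17.1 and 14.6. Of the 12 limited libraries 10 were above their full medium library, and replicate 3 at 0.12 mM, with 54 counts, was the farthest below it. The log2 change of the mean of the limited groups was 0.16 (SE 0.128, 95% interval -0.10 to 0.42, edgeR adjusted p 0.430). It was 0.26 at 0.20 mM and 0.22 at 0.04 mM, with adjusted p of 0.284 and 0.422. No group was separated from full medium for any of the 3 sestrins.

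CASTOR1 (ENSG00000239282, chr22:30285117-30289505), the arginine sensor, was close to absent from these libraries. It had 8 counts in all and was at 0 in 9 of 15 libraries. A count of 0 allows up to 3 counts, or 0.225 to 0.810 CPM over the depths of all 15 libraries. No change could be tested at this depth. In addition, 46.0% of its exonic bases lie under a read-through gene on the same strand, whose own row held 0 counts.

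CASTOR2 (ENSG00000274070, chr7:74964705-75031528) held 35.5, 27.1 and 38.5 CPM in full medium and 40.3, 39.1 and 40.8 CPM at 0.12 mM. All 3 libraries at 0.12 mM were above all 3 in full medium, a separation that 12.2% of tested genes showed in that comparison. At 0.28 mM it held 42.4, 35.8 and 36.2 CPM, at 0.20 mM 38.2, 35.1 and 33.1 CPM and at 0.04 mM 39.4, 34.1 and 37.0 CPM, all overlapping with full medium. Replicate 2 of full medium was its lowest library. The log2 change at 0.12 mM was 0.26 (SE 0.101, 95% interval 0.05 to 0.46), with an edgeR adjusted p of 0.118. For the mean of the limited groups it was 0.17 (SE 0.0808, 0.0025 to 0.33), with an adjusted p of 0.158, and 9 of 12 limited libraries were above their full medium library. These values turned on single full medium libraries. Without replicate 3, CASTOR2 was called, with 0.37 at 0.12 mM (adjusted p 0.0378) and 0.28 in the mean of the limited groups (0.0390), and without replicate 2 the same changes were 0.15 (0.490) and 0.06 (0.752). An offset for GC content and transcript length also brought calls, at 0.33 (0.0473) and 0.26 (0.0298). Under spike-in scaling the CASTOR2 changes were smaller, at 0.08 (0.770) and 0.07 (0.742).

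DEPDC5 (ENSG00000100150, chr22:31753968-31908033), the GATOR1 subunit that contacts the Rag GTPases, was lower than full medium throughout by a small margin. It held 19.2, 18.1 and 16.8 CPM in full medium, 16.8, 18.0 and 14.3 at 0.28 mM, 16.7, 16.0 and 15.9 at 0.20 mM, then 17.2, 15.6 and 15.2 at 0.12 mM. At 0.04 mM the values were 16.9, 16.6 and 16.5. All 12 limited libraries were below the full medium library of their number, and 14.0% of tested genes had all 12 on 1 side. Only at 0.20 mM were all 3 libraries below all 3 of full medium, as 15.5% of tested genes were separated there. The log2 change in the mean of the limited groups was -0.15 (SE 0.0955, 95% interval -0.34 to 0.05), with an edgeR adjusted p of 0.303. The changes at 0.28, 0.20, 0.12 and 0.04 mM were -0.14, -0.16, -0.17 and -0.13. Genes on the same strand overlap 10.8% of its exonic bases, and their rows held 0 counts.

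RRAGC (ENSG00000116954, chr1:38838198-38859772), which encodes RagC, had the largest log2 changes of the 7 genes other than DEPTOR at 0.20, 0.12 and 0.04 mM and in the mean of the limited groups. Its libraries held 6.19, 7.11 and 7.88 CPM in full medium, 6.71, 9.01 and 7.90 at 0.28 mM, 7.77, 9.65 and 8.30 at 0.20 mM, then 8.42, 9.31 and 8.17 at 0.12 mM. At 0.04 mM the values were 8.48, 12.1 and 8.65. All 12 limited libraries were above the full medium library of their number, and 14.0% of tested genes had all 12 on 1 side. The 12 differences share the 3 full medium libraries and are not independent. The groups at 0.12 and 0.04 mM lay wholly above full medium, a separation found in 12.2 and 15.2% of tested genes. At 0.28 mM, where 9.29% of tested genes were separated, RRAGC and all other members overlapped with full medium. The group means were 7.06 ± 0.848 CPM in full medium (SD, n = 3), then 7.87 ± 1.15, 8.58 ± 0.969, 8.63 ± 0.601 and 9.75 ± 2.06 CPM at 0.28, 0.20, 0.12 and 0.04 mM. The log2 change at 0.04 mM was 0.48 (SE 0.177, 95% interval 0.12 to 0.84), with an edgeR adjusted p of 0.0688. In the mean of the limited groups it was 0.31 (SE 0.138, 0.03 to 0.59, adjusted p 0.126). Without replicate 2 at 0.04 mM, its highest library, the change at 0.04 mM was 0.37 (adjusted p 0.310), and without full medium replicate 3 it was 0.58 (0.0535). Under spike-in scaling the RRAGC change was 0.47 at 0.04 mM (edgeR adjusted p 0.231), 0.13 at 0.12 mM (0.739) and 0.21 in the mean of the limited groups (0.469). The slope over the 12 limited libraries was -0.10 per doubling of glutamine (SE 0.0548, adjusted p 0.709). With the full medium libraries included at 2.5 mM it was -0.08 (adjusted p 0.0452), in a fit that called 2163 genes. RRAGC also had the largest share of variance between groups among the 8 genes, 46.8% of the variance of its log2 CPM. That share comes from the same libraries as the tests above, and the shares of all tested genes were not measured. A gene on the same strand overlaps 22.9% of its exonic bases, and that row held 0 counts. Depth was limited, with 32 to 106 RRAGC counts per library.

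The promoter windows of RefSeq (GRCh38.p14, 250 bases before to 50 after a start) were searched on both strands for CACGTG, the E-box core of the element that TFEB and TFE3 bind, a motif equal to its own reverse complement. It was in 7.26% of 35116 windows, in 1 of 11 windows of members (that of RRAGC, 1 of 7 members with a window) and in 9 of 59 windows of pathway genes (8 of 39 genes). CASTOR2, DEPTOR and RRAGD had no window and were not searched for any motif. The RRAGC window is shown because it was the only member with a match, beside those of 3 called pathway genes with a match upstream of the start: FNIP1, which encodes a folliculin partner, LAMTOR1, which encodes the lysosomal anchor of Ragulator, and ATF4. Each line is 66 bases upstream of the start, 5′ to 3′ on the strand of the gene, with the E-box core in capitals.
RRAGC, chr1:38859849-38859914, minus strand: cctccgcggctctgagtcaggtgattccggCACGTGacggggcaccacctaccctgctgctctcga
FNIP1, chr5:131797157-131797222, minus strand: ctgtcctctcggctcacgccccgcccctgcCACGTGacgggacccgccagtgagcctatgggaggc
LAMTOR1, chr11:72103427-72103492, minus strand: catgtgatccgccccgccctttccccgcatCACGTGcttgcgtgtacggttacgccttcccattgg
ATF4, chr22:39520447-39520512, plus strand: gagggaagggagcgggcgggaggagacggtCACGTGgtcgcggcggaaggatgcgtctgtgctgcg
The motif began 112 bases before the RRAGC start, and FNIP1 holds another match nearer its start that is not shown. LAMTOR4, TSC2 and RRAGB also had a match upstream of the start and were not called, and the called genes KICS2 and NPRL3 had one after it. Of the genes shown, FNIP1 and ATF4 rose and LAMTOR1 fell in the mean of the limited groups, and RRAGC was not called. These are matches of letters and not measured binding, and a link between the motif and the changes was not tested. TGATGNAA, the composite element of ATF4, was in 3.62% of all windows, and GTAAACA, the FOXO core, in 3.42%. Neither was in the window of a member, SESN2 and SESN3 included, and TGATGNAA was in that of 1 pathway gene, TSC2.

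RRAGD (ENSG00000025039, chr6:89364616-89412273), the paralogue of RRAGC, was barely detected and did not pass the filter. It had 1 to 9 counts per library and 80 in all, or 0.554, 0.647 and 0.646 CPM in full medium and 0.373, 0.307 and 1.08 CPM at 0.04 mM. The limited libraries ran from 0.190 to 1.08 CPM on both sides of full medium, and a difference was not detectable at this depth.

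FLCN (ENSG00000154803, chr17:17212212-17237330) was measured at 13.8, 10.7 and 8.79 CPM in full medium. It held 10.9, 10.3 and 11.6 CPM at 0.28 mM, 10.7, 10.2 and 9.69 at 0.20 mM, then 11.3, 8.96 and 7.03 at 0.12 mM. At 0.04 mM the values were 11.2, 10.3 and 10.5. Full medium was the most spread group, and no limited group was separated from it. The log2 change in the mean of the limited groups was -0.12 (SE 0.125, 95% interval -0.38 to 0.13, edgeR adjusted p 0.562). It was -0.26 at 0.12 mM (SE 0.162, adjusted p 0.355) and -0.03, -0.12 and -0.07 at 0.28, 0.20 and 0.04 mM. Without full medium replicate 1, its highest library, the change in the mean of the limited groups was 0.01.

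DEPTOR (ENSG00000155792, chr8:119873722-120050918) passed the filter with only 6 to 15 counts per library. It held 0.646, 0.647 and 1.03 CPM in full medium and 0.652, 1.07 and 1.62 CPM at 0.04 mM, and the limited libraries ran from 0.476 to 1.90 CPM. Replicate 1 was the lowest in each limited group. The log2 change at 0.04 mM was 0.47 (SE 0.515, edgeR adjusted p 0.602) with a 95% interval from 0.669-fold to 2.87-fold, which holds both lower and higher levels. For the mean of the limited groups it was 0.34 (SE 0.395, adjusted p 0.613). An antisense gene overlaps 9.61% of its exonic bases, and its row held 1 count in all.

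**Figure D3:**
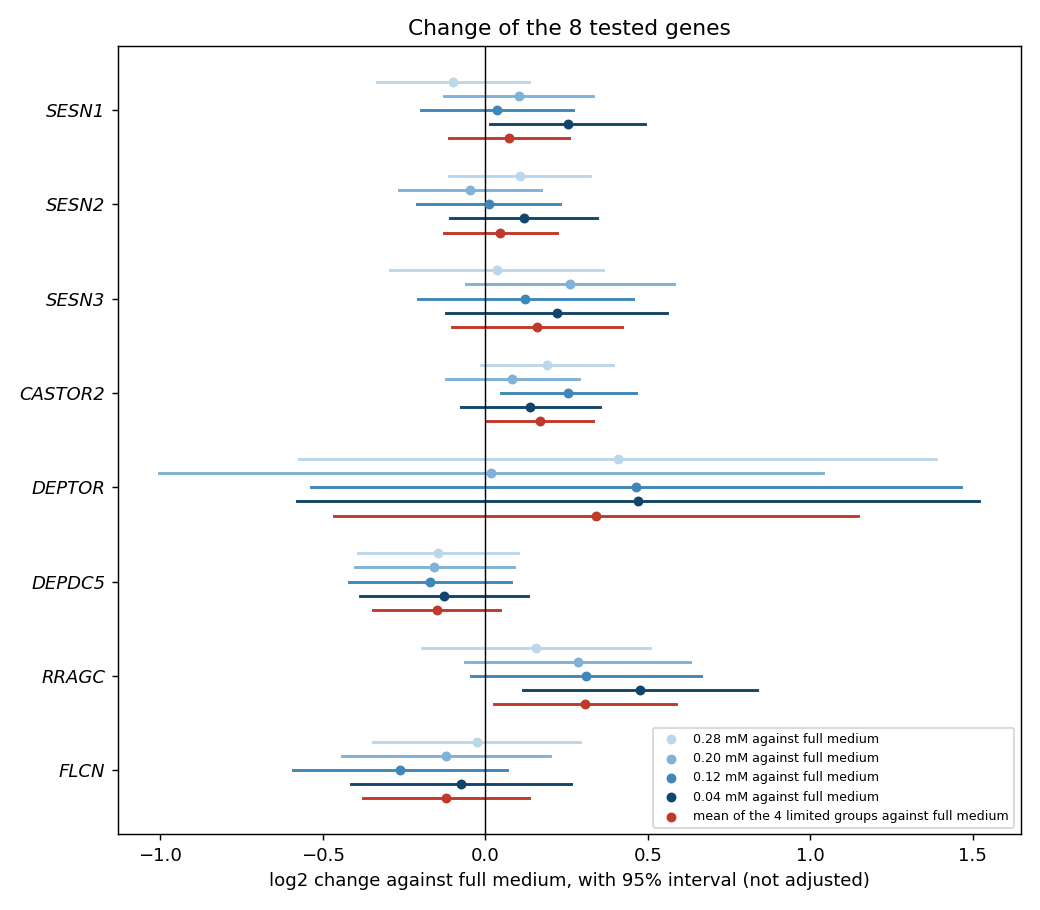
Log2 change against full medium with its 95% interval (not adjusted) for the 8 tested genes, in blue for each concentration (n = 3 libraries against 3) and in red for the mean of the 4 limited groups. Intervals of RRAGC and SESN1 at 0.04 mM, CASTOR2 at 0.12 mM, and RRAGC and CASTOR2 in the mean exclude 0, none passed after adjustment, and DEPTOR has the widest intervals.

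The replicate number held a large part of the spread of most of these genes. It took 72.5% of the variance of log2 CPM for DEPTOR, 55.5% for SESN1, 40.6% for SESN3 and 29.8 to 35.1% for CASTOR2, DEPDC5, RRAGC and FLCN. SESN2 differed in its small share between replicate numbers, 6.03%. Its share between groups, 35.4%, was like those of CASTOR2 (35.4%) and DEPDC5 (36.2%). Part of the variance falls between groups or numbers even without an effect, and the shares of all tested genes were not measured. The SD of log2 CPM over the 15 libraries was smallest for DEPDC5 (0.104) and SESN2 (0.126) and largest for DEPTOR (0.505). From the lowest to the highest library, DEPDC5 spanned 1.34-fold, SESN2 1.40-fold and RRAGC 1.96-fold.

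Among 10300 genes with a symbol and a mean of at least 5 CPM, those most like 3 members over the 15 libraries, after removal of the mean of each replicate number, are given as a description. RRAGC was most like CCDC102A (Pearson r = 0.916), STON2 (0.886) and CCNG2 (0.882). CASTOR2 was most like SMARCC1 (0.901), SLC6A6 (0.889) and WIPI2 (0.888), and SESN1 most like YOD1 (0.837), PDCD6IP (0.819) and H3-3A (0.819). STON2 encodes an endocytic adaptor, CCNG2 a cyclin, SMARCC1 a chromatin remodelling subunit, SLC6A6 the taurine transporter and WIPI2 an autophagy protein. These are the highest of many correlations, and the points share libraries and depth.

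Around the 10 genes, the surrounding pathway of 46 further genes was tested, all 46 of which passed the filter. In the mean of the limited groups, 7 rose and 8 fell, beside 8.67% of all genes that rose and 8.37% that fell, and the median log2 change of the 46 was -0.015. By concentration, 0 rose and 1 fell at 0.28 mM (1.23 and 0.846% of all genes), 5 rose and 7 fell at 0.20 mM (7.67 and 7.15%), 2 rose and 4 fell at 0.12 mM (4.41 and 3.90%), and 4 rose and 4 fell at 0.04 mM (7.21 and 6.23%). The balance moved with the offset and the scaling. At 0.20 mM 5 rose and 1 fell with the GC and length offset and 2 rose and 2 fell under spike-in scaling, which gave 0 and 8 at 0.12 mM and 1 and 1 at 0.04 mM. Under spike-in scaling the split in the mean of the limited groups was 1 that rose and 8 that fell. Without the 2 libraries with most mitochondrial ribosomal RNA it was 6 and 7, and without replicate 3 in every group 4 and 4. Single full medium libraries moved it to 3 and 3 without replicate 2 and to 3 and 5 without replicate 3. Without the replicate block 0 of the 46 passed, in fits that called 0% of all genes at 0.28 and 0.12 mM, 0.0145% at 0.20 mM, 0.0434% at 0.04 mM and 0.289% in the mean of the limited groups.

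**Figure D4:**
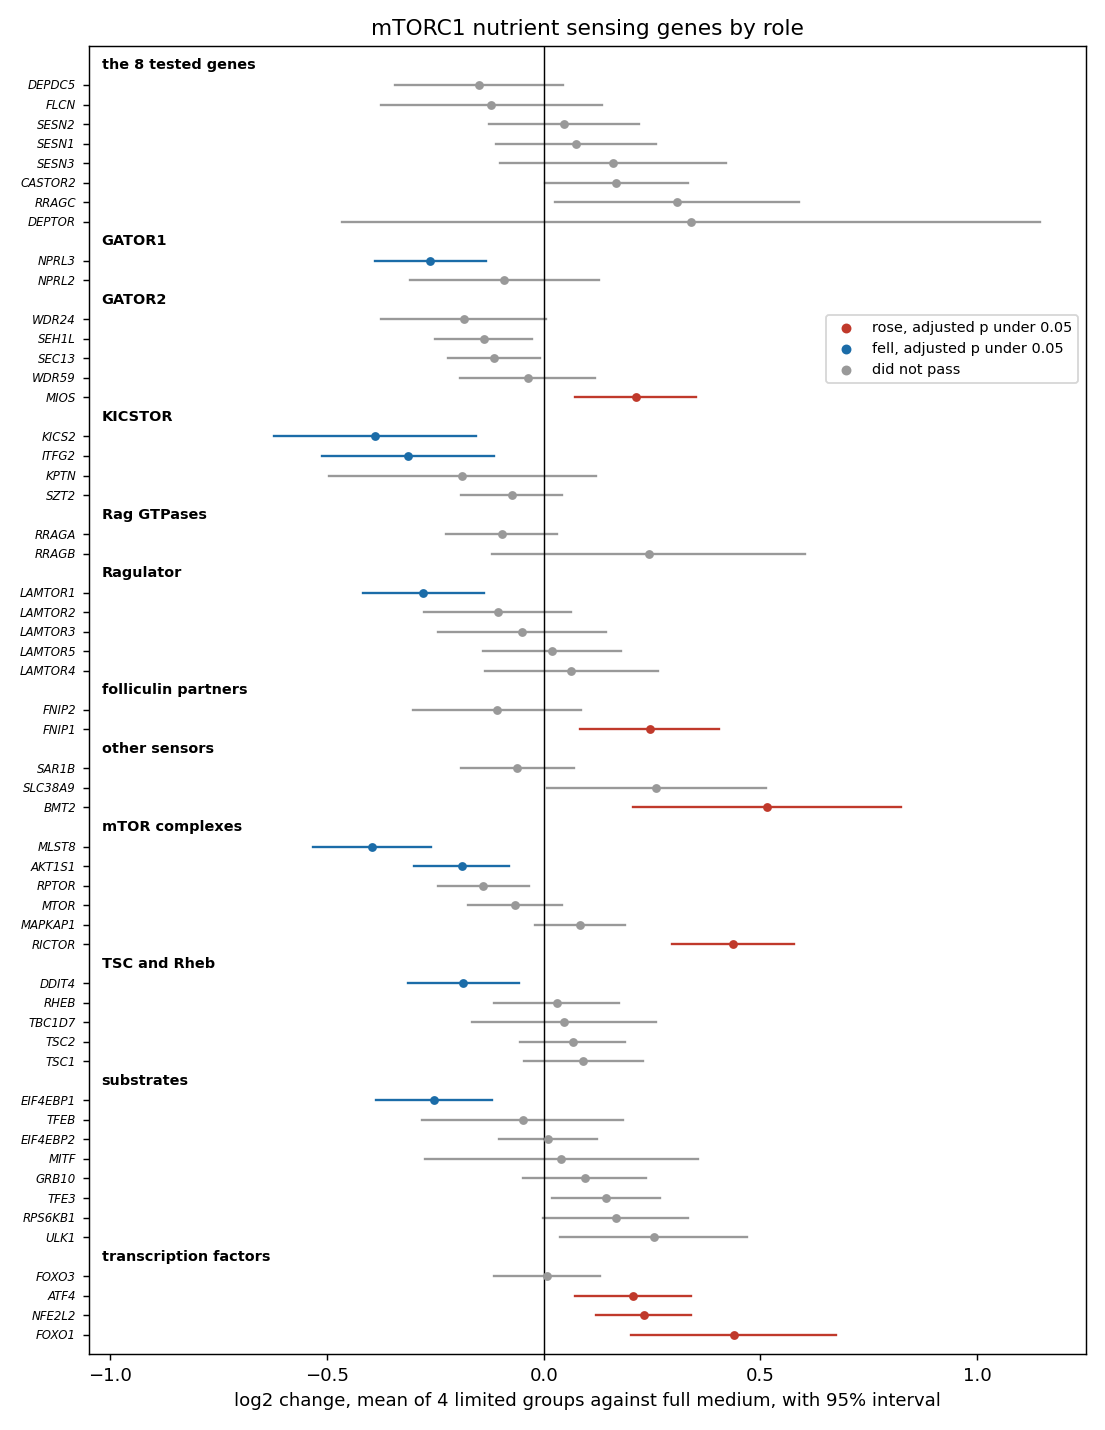
Log2 change of the mean of the 4 limited groups against full medium with its 95% interval for the 8 tested genes and the 46 pathway genes, ordered within each role, in red or blue where the edgeR adjusted p is under 0.05 with the replicate block. The 8 genes at the top are all grey, RICTOR at 0.44 is the clearest rise and MLST8 at -0.40 the clearest fall.

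The strongest calls lay in the mTOR complexes, where 1 of 6 genes rose and 2 fell in the mean of the limited groups. Beside them, 8.67% of all genes rose and 8.37% fell. RICTOR, the scaffold of mTORC2, held 31.5, 47.4 and 54.5 CPM in full medium and 45.7, 69.6 and 74.3 CPM at 0.04 mM. All 12 of its limited libraries were above their full medium library, although the ranges overlapped, and 14.0% of tested genes had all 12 on 1 side. The log2 change of RICTOR in the mean of the limited groups was 0.44 (SE 0.0691, edgeR adjusted p 4.6e-05). With the offset for GC content and length it was 0.28 and still passed. MLST8, shared by both mTOR complexes, held 80.4, 86.9 and 89.7 CPM in full medium and 65.2, 56.2 and 63.5 CPM at 0.04 mM. It lay below full medium with no overlap at all 4 concentrations, where 9.29, 15.5, 12.2 and 15.2% of all tested genes were separated at 0.28, 0.20, 0.12 and 0.04 mM, and fell by 0.40 on the log2 scale in their mean (SE 0.0664, adjusted p 9.48e-05). AKT1S1, which encodes the mTORC1 inhibitor PRAS40, had a change of -0.19 (SE 0.0539, adjusted p 0.0134), a call that ended without full medium replicate 1 (-0.15, adjusted p 0.120) or 3 (-0.18, 0.0658), without replicate 3 in every group (0.101) and with the GC and length offset (-0.13, 0.0823).

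Among the complexes next to the sensors, NPRL3, the GATOR1 partner of DEPDC5, fell by 0.26 in the mean of the limited groups (SE 0.0624, edgeR adjusted p 0.00352). Changes and calls in this paragraph are those of that mean unless a concentration is named. NPRL3 held 64.8, 51.8 and 66.4 CPM in full medium and 58.8, 42.6 and 54.3 CPM at 0.04 mM, where it was not called. All 12 of its limited libraries were lower, where 14.0% of tested genes had all 12 on 1 side. Within KICSTOR, which tethers GATOR1 to the lysosome, KICS2 and ITFG2 of 4 genes fell, beside 8.37% of all genes, and the group itself was not tested. KICS2 had a log2 change of -0.39 (SE 0.114, edgeR adjusted p 0.0165) and ITFG2 one of -0.31 (SE 0.0970, adjusted p 0.0233). ITFG2 lay below full medium with no overlap at all 4 concentrations, beside the same shares of all genes as for MLST8. Unlike MLST8, it was called at only 1 of these concentrations, 0.20 mM. In the mean, the KICS2 call ended without full medium replicate 2 (-0.33, adjusted p 0.142), and that of ITFG2 without full medium replicate 1 (-0.34, 0.0511), 2 (-0.33, 0.0658) or 3 (-0.27, 0.138). Of the 5 Ragulator genes LAMTOR1 fell, beside 8.37% of all genes. Its change was -0.28 (SE 0.0685, adjusted p 0.00452), which without full medium replicate 2 was -0.25 (0.0573). BMT2, which encodes the S-adenosylmethionine sensor SAMTOR, had a log2 change of 0.52 in the mean of the limited groups (SE 0.152, adjusted p 0.0170). By concentration, BMT2 was called at 0.20 mM alone, with a change of 0.81. It held 3.97 to 6.47 CPM in full medium, 6.90 to 11.9 CPM at 0.20 mM and 6.62 to 8.45 CPM at 0.04 mM. Its call in the mean ended without full medium replicate 2 (adjusted p 0.0759) or 3 (0.0735), under spike-in scaling (0.126) and with the GC and length offset (0.0567). The 2 other Rag genes, RRAGA and RRAGB, were not called at any concentration.

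Downstream, the translation repressor gene EIF4EBP1 was the only 1 of 8 substrate genes called, beside 17.0% of all genes in the mean of the limited groups. Its change in that mean was -0.25 (SE 0.0657, edgeR adjusted p 0.00669). It lay below full medium with no overlap at 0.28, 0.20 and 0.12 mM (9.29, 15.5 and 12.2% of all genes) but not at 0.04 mM, and its call ended without full medium replicate 1 (-0.21, adjusted p 0.0698) or 2 (-0.23, 0.0663) and with the GC and length offset (-0.15, 0.108). Among 4 transcription factor genes known to act on sestrins, ATF4, NFE2L2 and FOXO1 rose in the mean of the limited groups, beside 8.67% of all genes. This short list was chosen with earlier results of these data known, and the group itself was not tested. NFE2L2, which encodes NRF2, held 94.4, 99.8 and 103 CPM in full medium and 106, 118 and 133 CPM at 0.04 mM. Its change in the mean of the limited groups was 0.23 (SE 0.0539, adjusted p 0.00294). Other genes overlap 20.9% of its exonic bases, and under spike-in scaling its change was 0.14 (adjusted p 0.409). FOXO1 had a change of 0.44 (SE 0.116, adjusted p 0.00793), which without full medium replicate 2 was 0.33 (0.113) and under spike-in scaling 0.35 (0.0797).

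Outside the 12 named by rule, 4 further pathway genes passed in some comparison, and they are named after their values were seen. In the mean of the limited groups FNIP1 had a log2 change of 0.24 (edgeR adjusted p 0.0285), MIOS, a GATOR2 gene, 0.21 (0.0292), and DDIT4, an inhibitor of mTORC1 whose exons are overlapped over 41.2%, -0.19 (0.0380). RPTOR, the scaffold of mTORC1, passed at 0.20 mM alone, with -0.23 (0.0154). Its call ended under spike-in scaling (-0.28, adjusted p 0.203), with the GC and length offset (-0.15, 0.156), with replicate 3 omitted in every group (0.0616), and without replicate 1 (0.0729) or 2 (0.0819) at 0.20 mM. The calls of FNIP1, MIOS and DDIT4 in the mean ended when 6, 5 and 7 of the 15 libraries were left out one at a time. Full medium replicate 3 was among them for all 3 genes, with changes of 0.26, 0.21 and -0.09 without it. The GC and length offset ended all 3 calls, with FNIP1 at 0.12 (adjusted p 0.320), MIOS at 0.16 (0.0959) and DDIT4 at -0.11 (0.258), and spike-in scaling ended those of FNIP1 (0.15, 0.437) and MIOS (0.12, 0.531).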

How the data were processed

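The authors deposited whole-number counts of each gene in each library, not normalized, and the tests ran on these counts as they stand. The submitters' processing notes name GRCh38.p14 and hg38. The aligner, counting rule and strand setting were not given in the sources used here. Each of the 15 columns matched the label of 1 sample. Gene symbols were found for 42343 of 62754 genes, and 92 spike-in rows were kept apart from the tests. Coordinates and promoters are from RefSeq (GRCh38.p14), and lengths, GC content and exonic overlaps from GENCODE 29, which may differ from the annotation used for counting. For the promoters, the bases after the start were found in a transcript of the same gene for 57 of 70 windows and as a reverse complement for 0.

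Genes were filtered with filterByExpr of edgeR 4.0.16 under R 4.3.3 (minimum count 10, minimum total 15), with 99.72% or more of each library's counts kept, and fitted in 1 quasi-likelihood model of 15 libraries with TMM factors, a term per group and the replicate number as a block. The mean of the limited groups is a contrast of the same fit, and the slope is a fit of the 12 limited libraries on log2 glutamine. Adjusted p-values are Benjamini-Hochberg values over 13828 genes with a threshold of 0.05. The block was taken because libraries that share a number deviate together. With group means removed, all 30 pairs of like number correlated above 0.1 (r 0.184 to 0.489). Pairs unlike in both number and group had r from -0.406 to 0.0549. Deviations within a group then cancel, so agreement of like numbers by itself lowers the r of unlike numbers. What the numbers stand for is not stated in the labels.

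The members, the 46 pathway genes, the marker lists, the tests and the block were chosen with earlier results of these data known. All members are named, with up to 12 pathway genes called in any comparison with full medium, smallest adjusted p in the mean of the limited groups first. One result of the wider pathway list is not reported here. For the 3 members with the smallest p over the 5 groups, the 3 genes of highest correlation are named. Alternatives were no block, DESeq2 1.42.0, its size factors, spike-in scaling, no filter beyond 1 count or 5 CPM in at least 3 libraries, a fit of only the 2 groups compared, thinning to 3704170 counts, leaving out the 2 libraries with over 1% mitochondrial ribosomal RNA, replicate 3 or each library, and, for the slope, all 15 libraries. An offset per library from splines (4 degrees of freedom) on GC content and transcript length, known for 97.9% of genes, was chosen after seeing the data. The code was tested on simulated data for 0.04 mM against full medium, with 200 of 13828 genes altered: edgeR with the block found 82% of changes of 1 and 50% of 0.5 on the log2 scale, with 3 false calls among 135, and without it 58 and 5%. The simulated counts came from a fit on the replicate number, so an effect of that number was built in and favoured the block. Far fewer genes were altered than the 1858 called at 0.04 mM in the data, so these shares do not carry over.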

Additional observations from a re-analysis of the deposited data

How the results depend on the processing

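The fit without the replicate block called 0 of the 8 members in each comparison, as the fit with it did, and 0 of the 46 pathway genes against 15 with it in the mean of the limited groups, so every call of a pathway gene rests on the pairing by number. Over all 13828 genes it called 0, 2, 0 and 6 at 0.28, 0.20, 0.12 and 0.04 mM and 40 in the mean, against 287, 2050, 1149, 1858 and 2357 with the block. Spike-in scaling called 120 at 0.28 mM, 421 at 0.20 mM, 1206 at 0.12 mM, 506 at 0.04 mM and 1350 in the mean, and omitting replicate 3 in every group called 1, 985, 463 and 996 in the same order of concentrations and 1367 in the mean. Thinning gave 153, 1280 and 705 at 0.28, 0.20 and 0.12 mM, fits to the 2 compared groups alone gave 272 at 0.12 mM and 1171 at 0.04 mM, and the GC and length offset gave 977 at 0.20 mM. The comparisons of these last 3 settings that are not listed moved by less than 1.5 times. With single libraries left out the counts ran from 24 to 775 at 0.28 mM, 988 to 2300 at 0.20 mM, 550 to 1438 at 0.12 mM, 963 to 2088 at 0.04 mM and 1467 to 2409 in the mean. They moved by over 1.5 times at 0.28 mM without replicate 1 (32) or 3 (24) of that group, full medium replicate 1 (775), 2 (60) or 3 (69) or replicate 2 at 0.12 mM (458), at 0.20 mM without its replicate 1 (988) or 3 (1131), at 0.12 mM without its replicate 2 (550) or full medium replicate 2 (744) or 3 (690), at 0.04 mM without its replicate 2 (963), and in the mean without full medium replicate 2 (1467) or 3 (1542). Without the block, the RRAGC change at 0.04 mM was 0.47 (edgeR adjusted p 0.370). Over 1416 alternative values of single members, 1349 kept their direction and their side of the threshold, 61 changed sign, 6 newly passed and 0 lost a call, since none had one. The number of members called went from 0 to 1 at 0.12 mM with the GC and length offset, in the mean of the limited groups with that offset and with replicate 3 omitted in every group (CASTOR2 each time), and for the slope with all 15 libraries (RRAGC). With single libraries left out it was 0 to 1 at 0.12 mM and 0 to 1 in the mean. Of 1546 alternative values of the 12 named pathway genes, 162 lost their call, 34 newly passed and 0 changed sign.

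None of the values that changed sign had passed the threshold, and the cause of each change of sign was not tested. Under spike-in scaling, the sign turned for SESN1 at 0.12 mM (-0.15), SESN1 in the mean (-0.021), SESN2 at 0.28 mM (-0.021), SESN2 at 0.12 mM (-0.17), SESN2 in the mean (-0.042), SESN3 at 0.28 mM (-0.092), SESN3 at 0.12 mM (-0.051), CASTOR2 in the slope (-0.031), DEPTOR at 0.20 mM (-0.037), FLCN in the slope (-0.023). With the GC and length offset and the replicate block, the sign turned for SESN1 at 0.12 mM (-0.0067), SESN2 at 0.20 mM (0.064), SESN3 at 0.28 mM (-0.049), SESN3 at 0.12 mM (-0.011), CASTOR2 in the slope (-0.00096), DEPTOR at 0.20 mM (-0.014). With no filter beyond 1 count, the sign turned for SESN2 at 0.12 mM (-0.00043). With the 2 compared groups alone, the sign turned for SESN2 at 0.12 mM (-0.0070). Without the 2 libraries with most mitochondrial ribosomal RNA, the sign turned for SESN2 in the slope (0.0014), DEPDC5 in the slope (0.0055). After thinning to the shallowest library, the sign turned for SESN3 at 0.28 mM (-0.12), CASTOR2 in the slope (-0.0091), DEPTOR at 0.20 mM (-0.40), DEPTOR at 0.12 mM (-0.27), DEPTOR at 0.04 mM (-0.25), DEPTOR in the mean (-0.18), DEPTOR in the slope (0.11), FLCN at 0.28 mM (0.19). With all 15 libraries in the slope, the sign turned for CASTOR2 in the slope (-0.030), DEPDC5 in the slope (0.026). With replicate 3 omitted in every group, the sign turned for DEPDC5 in the slope (0.0079), FLCN in the slope (-0.0080). With single libraries left out in turn, the lowest and highest log2 values of those that changed sign were CASTOR2 at 0.20 mM (-0.026 to 0.20), CASTOR2 in the slope (-0.013 to 0.011), DEPDC5 in the slope (-0.024 to 0.0047), DEPTOR at 0.20 mM (-0.16 to 0.25), FLCN at 0.04 mM (-0.17 to 0.059), FLCN at 0.20 mM (-0.22 to 0.0078), FLCN at 0.28 mM (-0.15 to 0.10), FLCN in the mean (-0.22 to 0.011), FLCN in the slope (-0.017 to 0.028), SESN1 at 0.12 mM (-0.068 to 0.15), SESN1 at 0.28 mM (-0.20 to 0.016), SESN1 in the mean (-0.030 to 0.19), SESN2 at 0.12 mM (-0.089 to 0.094), SESN2 at 0.20 mM (-0.10 to 0.0028), SESN2 in the mean (-0.0067 to 0.098), SESN2 in the slope (-0.045 to 0.013), SESN3 at 0.12 mM (-0.046 to 0.31), SESN3 at 0.28 mM (-0.052 to 0.13), SESN3 in the slope (-0.070 to 0.0018). Depth limits DEPTOR, RRAGD and CASTOR1, with at most 15, 9 and 2 counts per library.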
